A study of Homo sapiens with 44 samples.

Results

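The 38 genes described here encode proteins of epithelial cell junctions, of apical polarity and of apical membrane transport. They were taken by gene symbol from a list, and all 38 were present among the 18797 genes of the GAS41 experiment and the 21159 genes of the doxorubicin experiment. In the list 34 were placed for what they encode, with earlier results of these data known. MAL2, AP1M2, DSC3 and EPN3 were chosen by their fall in GAS41-KO, so their values in GAS41-KO against WT are a description and carry no test. By role, 4 belong to adherens junctions and adhesion, 13 to tight junctions, 9 to desmosomes and the cornified plaque, 3 to polarity, 4 are membrane proteases or their inhibitors and 5 act in apical transport.

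All RNA came from HCT116, a human colorectal carcinoma line with both copies of p53 intact. GAS41, the product of YEATS4, is a chromatin protein whose YEATS domain binds acylated histone tails. The GAS41 experiment has 4 groups of 3 libraries. The mut rescue group is GAS41-KO cells that stably express GFP-Flag-tagged GAS41 with the substitutions Y74A and W93A. The wt rescue group is GAS41-KO cells that stably express the tagged protein without substitutions. GAS41-KO cells carry no rescue construct, and WT cells carry no knockout. Both rescues share the knockout with GAS41-KO. In the doxorubicin experiment, 3 libraries of HCT116 cells given 500 nM of the topoisomerase poison doxorubicin are set against 3 given DMSO, the solvent. Neither the number of clones behind GAS41-KO and each rescue nor the length of the doxorubicin treatment is given in the sources used here. The 3 libraries of each group are labelled as biological replicates.

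Epithelial cells hold together through adherens junctions, whose E-cadherin binds the same protein on the next cell, through tight junctions, which seal the space between cells, and through desmosomes, which tie keratin filaments to the membrane. Polarity complexes set the apical side apart from the rest, and recycling vesicles carry apical proteins to it. The epithelial factor GRHL2 is known to activate several of these genes, OVOL1 to repress ZEB1, and the repressors ZEB1 and SNAI2 to bind E-boxes at the promoters of some of them.

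RefSeq promoter windows on GRCh38.p14 covered 21 of the 38 members, with 30 windows of 300 bases that run from 250 before to 50 after a transcription start. They were searched on both strands for the E-box CACCTG, which reads CAGGTG on the other strand. A match was in 15 of the 30 windows (50.0%), which belong to 14 members, and in 20.6% of all 35116 windows in the table. Windows with 3 or more matches made up 0.635% of the table and 4 of the 30 member windows, 1 each for AP1M2, CLDN7, CRB3 and MYO5B. AP1M2 is among the members chosen by their fall. EPCAM, CDH1, ST14, PKP3 and MAL2, all far lower in GAS41-KO, had no window. A search for the grainyhead-type motif AACCGGTT, AACTGGTT or AACCAGTT found it in 0 member windows and in 0.803% of all windows. The windows below were picked after the values were known. AP1M2, CLDN7, RAB25 and CRB3 were lower in GAS41-KO by a wide margin and hold matches, MYO5B holds matches with a small difference, and DSC3 was far lower and holds none. Windows of DSP, JUP and CLDN3, which were higher in GAS41-KO (log2 differences 0.26, 0.36 and 0.25), hold 2, 2 and 1 matches. A second window of JUP and a second window of CLDN7 hold 0. Each is written 5′ to 3′ on the gene's strand, with matches in capitals. They lie at chr19:10587263-10587562 (minus strand) for AP1M2, chr17:7262429-7262728 (minus) for CLDN7, chr1:156060910-156061209 (plus) for RAB25, chr19:6464021-6464320 (plus) for CRB3, chr18:50195098-50195397 (minus) for MYO5B and chr18:31042693-31042992 (minus) for DSC3.
AP1M2: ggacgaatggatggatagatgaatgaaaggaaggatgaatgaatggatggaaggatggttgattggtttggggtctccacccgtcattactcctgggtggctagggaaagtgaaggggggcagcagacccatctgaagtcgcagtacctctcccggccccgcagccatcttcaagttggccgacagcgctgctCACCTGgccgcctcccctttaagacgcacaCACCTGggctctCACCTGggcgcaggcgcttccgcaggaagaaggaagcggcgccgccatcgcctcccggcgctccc
CLDN7: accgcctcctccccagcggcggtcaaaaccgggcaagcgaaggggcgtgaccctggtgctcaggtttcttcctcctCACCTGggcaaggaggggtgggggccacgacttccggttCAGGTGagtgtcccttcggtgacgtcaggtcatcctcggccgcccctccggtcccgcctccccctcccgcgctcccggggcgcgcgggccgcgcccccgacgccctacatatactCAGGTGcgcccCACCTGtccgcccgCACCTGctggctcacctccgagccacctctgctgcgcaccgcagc
RAB25: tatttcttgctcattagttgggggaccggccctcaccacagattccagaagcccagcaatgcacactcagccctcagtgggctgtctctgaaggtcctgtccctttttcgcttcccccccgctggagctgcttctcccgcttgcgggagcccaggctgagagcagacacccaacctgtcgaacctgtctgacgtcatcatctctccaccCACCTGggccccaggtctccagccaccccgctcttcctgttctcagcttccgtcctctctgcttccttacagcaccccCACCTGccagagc
CRB3: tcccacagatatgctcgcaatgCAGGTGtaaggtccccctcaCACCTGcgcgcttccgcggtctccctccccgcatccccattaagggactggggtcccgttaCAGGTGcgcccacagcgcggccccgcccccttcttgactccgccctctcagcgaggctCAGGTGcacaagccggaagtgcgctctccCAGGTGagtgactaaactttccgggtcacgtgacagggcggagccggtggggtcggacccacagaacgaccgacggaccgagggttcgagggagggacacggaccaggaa
MYO5B: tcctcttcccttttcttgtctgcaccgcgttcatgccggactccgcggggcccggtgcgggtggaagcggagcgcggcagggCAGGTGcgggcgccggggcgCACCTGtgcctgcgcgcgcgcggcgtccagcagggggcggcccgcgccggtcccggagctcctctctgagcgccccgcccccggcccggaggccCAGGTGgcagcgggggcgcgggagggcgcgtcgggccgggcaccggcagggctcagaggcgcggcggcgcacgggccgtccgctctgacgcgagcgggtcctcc
DSC3: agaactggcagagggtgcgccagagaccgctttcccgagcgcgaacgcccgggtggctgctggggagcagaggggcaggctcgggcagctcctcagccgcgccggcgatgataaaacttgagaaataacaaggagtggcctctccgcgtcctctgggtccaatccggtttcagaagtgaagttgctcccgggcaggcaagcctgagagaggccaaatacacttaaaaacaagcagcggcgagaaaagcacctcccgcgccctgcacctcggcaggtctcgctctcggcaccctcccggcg

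The AP1M2 window has 3 matches, which begin at -57, -27 and -15 from the start site, counted as +1. The CLDN7 window has 5, at -174, -135, -20, -9 and 6, and the CRB3 window also has 5, all before the start site. RAB25 has 2, at -41 and 38, and MYO5B has 3, at -168, -148 and -54. In GAS41-KO minus WT the log2 difference was -3.15 for AP1M2, -2.62 for CLDN7, -2.26 for RAB25, -2.07 for DSC3, -1.02 for CRB3 and -0.14 for MYO5B. A match says only that these letters are present.

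Values are normalized reads, that is reads divided by the size factor of the library, and differences are on the deposited variance-stabilized log2 scale, which shrinks the changes of genes with few reads. They do not correct for gene length, so levels are compared between groups and not between genes. Libraries held 16857982 to 18546135 reads in the GAS41 experiment and 17442035 to 18894312 in the doxorubicin experiment. YEATS4 averaged 2482 ± 108 in mut rescue, 3253 ± 323 in wt rescue, 349 ± 32.3 in GAS41-KO and 618 ± 8.98 in WT (SD, n = 3 each), so its RNA was still read in GAS41-KO. Libraries were less alike in both rescues than in GAS41-KO and WT, and replicate 1 of wt rescue stood apart from replicates 2 and 3, with a chi-square per gene of 25.3 and 16.4 against 3.13 between replicates 2 and 3. Replicate 2 of mut rescue also lay apart, at 9.14 and 16.3 against 4.6 between replicates 1 and 3. In the doxorubicin experiment, replicate 2 of doxorubicin lay at 8.46 and 8.06 from the others, against 1.70 between replicates 1 and 3, and the DMSO pairs ran between 5.92 and 19.4. The general epithelial keratin KRT8 and its partner KRT18 carried most of an 8-gene colon epithelial list, whose sum was 56381 to 67443 in mut rescue, 64634 to 76260 in wt rescue, 53918 to 55612 in GAS41-KO and 47353 to 50128 in WT. The same sum was 111511 to 124237 in doxorubicin and 58201 to 70480 in DMSO. The genes of this list did not move together. EPCAM and CDH1 were lower in GAS41-KO than in WT, while KRT8, KRT18 and KRT20 were higher. KRT20 averaged 103 ± 4.21 in GAS41-KO and 16.5 ± 2.46 in WT. VIL1 averaged 46.5 in doxorubicin and at most 1.0 in each other group, with 0 in wt rescue. Blood markers summed to at most 18.7 and endothelial markers to at most 32.6 in every library. The fibroblast markers found summed to 262 to 335 in mut rescue, 161 to 179 in wt rescue, 240 to 311 in GAS41-KO and 270 to 308 in WT, and to 327 to 406 in doxorubicin and 246 to 339 in DMSO. PTPRC was at 0 in mut rescue, wt rescue and WT, CDH5 in wt rescue and WT, COL3A1 in wt rescue, and DCN in DMSO. The part of these genes in the results was not tested. In bulk RNA, fewer cells with a transcript and less of it per cell cannot be told apart.

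EPCAM, CDH1, CLDN7, PKP3, ST14, RAB25, MAL2 and AP1M2 had means 6.37-fold to 34.2-fold lower in GAS41-KO than in WT. Other members of the same roles, such as the claudin CLDN12 and the motor MYO5B, had log2 differences of 0.01 and -0.14 there. A gene was called at an adjusted p under 0.05 from limma over all genes, and 37 of the 38 members passed the filter on low reads. The claudin CLDN1 did not, with 0 to 4 reads in every library of the GAS41 experiment. In GAS41-KO against WT, the contrast that chose 4 of the members, 5 of the other 33 tested members were called higher and 22 lower, where the calls over all 14505 tested genes were 26.0% higher and 26.6% lower. The median log2 difference was -0.54 over these 33 and -0.01 over all genes. In wt rescue against GAS41-KO 22 of the 33 were called higher and 7 lower, where the shares of all genes were 33.0% and 33.0%, and in mut rescue against GAS41-KO 10 were called higher and 3 lower, where the shares were 5.92% and 9.00%. With single libraries left out, the number of all genes called higher in mut rescue against GAS41-KO ran between 415 (without replicate 3 of GAS41-KO) and 887, against 858 with all libraries. It also fell by over 1.5 times without replicate 1 of GAS41-KO (481), replicate 2 of GAS41-KO (427) or replicate 1 of mut rescue (485), and the number called lower was 868 without replicate 3 of GAS41-KO, against 1306 with all. The members called higher then numbered 7 to 10. In wt rescue against WT 6 were called higher and 9 lower, where the shares were 27.4% and 22.7%. Without replicate 1 of wt rescue 12 were higher there, and without replicate 2 of WT 5 were lower. In mut rescue against WT 3 were called higher (1 without replicate 1 of WT) and 20 lower, where the shares were 23.5% and 22.9%. These 5 comparisons share libraries and are not independent of one another. The 33 members were listed with earlier results of these data known, so their counts are not blind to the data.

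**Figure D1:**
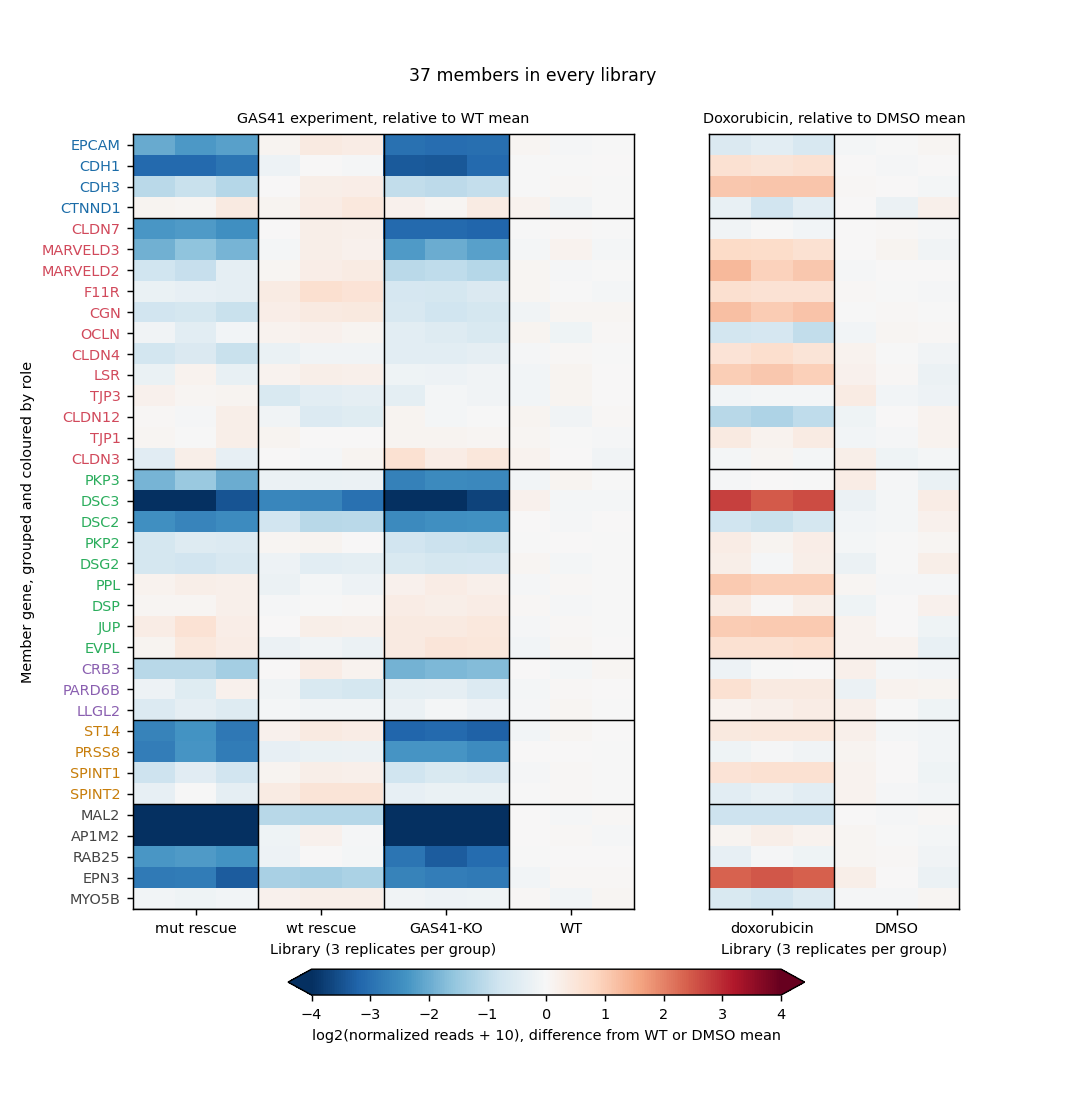
Columns are libraries, rows the 37 members that passed the filter in both experiments, grouped by role, and colour is log2(normalized reads + 10) minus the mean of the WT or DMSO libraries, with values past 4 drawn at the end colour. MAL2, AP1M2, DSC3, EPCAM, CDH1, CLDN7, ST14 and RAB25 are blue in mut rescue and GAS41-KO, and EPN3 and DSC3 are the darkest red rows in doxorubicin.

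Within the GAS41 experiment, the log2 difference of mut rescue against wt rescue uses no library of GAS41-KO or WT. Its SE and p-values come from the fit of all GAS41 libraries, so its calls do draw on the spread in GAS41-KO and WT. In mut rescue against wt rescue 27 of the 37 tested members were lower and 5 higher, against 31.3% lower and 29.8% higher among all genes tested. Fitted with only the 2 groups compared, 31 of these 32 calls were kept, and JUP was lost. The median log2 difference was -0.61 over the members and 0.00 over all genes. The 37 include the 4 members chosen by their fall in GAS41-KO, and all 4 were lower. Of the other 33 tested members 23 were lower and 5 higher, with a median of -0.54. Without replicate 1 of wt rescue the counts over the 37 were 27 lower and 6 higher. In doxorubicin against DMSO all 38 passed, 19 were higher and 8 lower, against 32.3% higher and 33.4% lower among all genes tested, and the medians were 0.19 and -0.01. CLDN1 is among those 19 and passed the filter only through the doxorubicin libraries. Without it 18 of 37 were higher.

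Among the adherens and adhesion genes, EPCAM, CDH1 and CDH3 were low in mut rescue and GAS41-KO, and CTNND1 was not. EPCAM, an epithelial adhesion molecule, had 1834, 1511 and 1666 normalized reads in mut rescue, 8127, 9608 and 9302 in wt rescue, 932, 898 and 915 in GAS41-KO and 7876, 7187 and 7446 in WT. The libraries of mut rescue and of GAS41-KO all lie below those of wt rescue and WT, and mut rescue lies above GAS41-KO. Its mean was 5.40-fold lower in mut rescue than in wt rescue (log2 difference -2.33, SE 0.08, adjusted p = 8.88e-13). EPCAM stood 1.83-fold higher in mut rescue than in GAS41-KO (log2 difference 0.77, SE 0.08, adjusted p = 4.32e-06), the largest log2 difference among the members in that comparison. CDH1 encodes E-cadherin, the cadherin of epithelial adherens junctions. It averaged 163 ± 13.6 in mut rescue, 1350 ± 103 in wt rescue, 138 ± 15.1 in GAS41-KO and 1419 ± 17.0 in WT (SD, n = 3 each). It was 8.26-fold lower in mut rescue than in wt rescue (log2 difference -2.33, adjusted p = 2.47e-13), and the libraries of mut rescue and GAS41-KO overlapped. P-cadherin, the product of the neighbouring CDH3, differed less. CDH3 averaged 1209 ± 102 in mut rescue, 2806 ± 242 in wt rescue, 1239 ± 36.9 in GAS41-KO and 2488 ± 83.0 in WT. CTNND1, the p120 catenin that holds cadherins at the membrane, had 209, 206 and 252 in mut rescue, 207, 236 and 259 in wt rescue, 218, 202 and 241 in GAS41-KO and 215, 175 and 189 in WT. These 4 groups overlap.

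Tight junction genes split, with 8 of 12 tested lower and 2 higher in mut rescue than in wt rescue. Over all genes tested, 31.3% were lower and 29.8% higher. CLDN7 had 445, 462 and 400 in mut rescue, 2297, 2670 and 2609 in wt rescue, 252, 253 and 243 in GAS41-KO and 2217, 2326 and 2213 in WT. It was 5.80-fold lower in mut rescue than in wt rescue (log2 difference -2.20, SE 0.07, adjusted p = 3.1e-13) and 1.75-fold higher in mut rescue than in GAS41-KO (adjusted p = 2.17e-05). MARVELD3, a tetraspanning protein of the seal, averaged 129 ± 15.9 in mut rescue, 510 ± 54.3 in wt rescue, 98.9 ± 10.8 in GAS41-KO and 470 ± 43.3 in WT. Its relative MARVELD2, tricellulin, which sits where 3 cells meet, averaged 161 ± 35.1 in mut rescue, 307 ± 27.6 in wt rescue, 119 ± 4.86 in GAS41-KO and 263 ± 10.8 in WT. The junctional adhesion molecule F11R, the plaque protein CGN (cingulin), occludin (OCLN) and CLDN4 were each lower in mut rescue than in wt rescue, with log2 differences of -0.77, -0.87, -0.29 and -0.50. LSR, which recruits tricellulin, had a log2 difference of -0.32, with overlapping libraries. Its adjusted p was 0.00628, 0.0591 under quantile normalization and 0.0903 with replicate 1 as the only library of wt rescue.

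TJP1, CLDN12, TJP3 and CLDN3 were not called lower in mut rescue than in wt rescue. TJP1, the scaffold ZO-1, averaged 2949 ± 252 in mut rescue, 2860 ± 114 in wt rescue, 2952 ± 50.5 in GAS41-KO and 2747 ± 118 in WT, and was called in none of the 6 comparisons among these groups. In mut rescue against wt rescue its log2 difference was 0.04 (SE 0.07, adjusted p = 0.617), and under quantile normalization it was 0.16 (adjusted p = 0.0437). CLDN12 had 907, 854 and 1038 in mut rescue, 791, 593 and 620 in wt rescue, 954, 823 and 868 in GAS41-KO and 942, 795 and 898 in WT. In CLDN12 every wt rescue library lay below the libraries of the other groups. It was higher in mut rescue than in wt rescue (log2 difference 0.41, adjusted p = 0.00114), and with replicate 1 as the only library of wt rescue the log2 difference was 0.20 (adjusted p = 0.127). TJP3, the scaffold ZO-3, had 420, 386 and 396 in mut rescue, 238, 272 and 284 in wt rescue, 281, 346 and 329 in GAS41-KO and 338, 395 and 374 in WT. All 3 wt rescue libraries lie below those of mut rescue (log2 difference 0.43, SE 0.07, adjusted p = 7.64e-05) and of WT (log2 difference -0.34 in wt rescue against WT, adjusted p = 0.00121). CLDN3, a sealing claudin, had 60.8, 104 and 66.4 in mut rescue, 88.7, 84.5 and 93.9 in wt rescue, 137, 110 and 121 in GAS41-KO and 96.4, 87.8 and 76.8 in WT. CLDN3 was not called between mut rescue and wt rescue (adjusted p = 0.263), but was without replicate 2 of mut rescue (log2 difference -0.21, adjusted p = 0.0116) and under quantile normalization (log2 difference -0.22, adjusted p = 0.0353). It was called lower in mut rescue than in GAS41-KO (log2 difference -0.34, adjusted p = 0.01), though not without replicate 1 of GAS41-KO (adjusted p = 0.0548) or replicate 1 of mut rescue (adjusted p = 0.062).

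**Figure D2:**
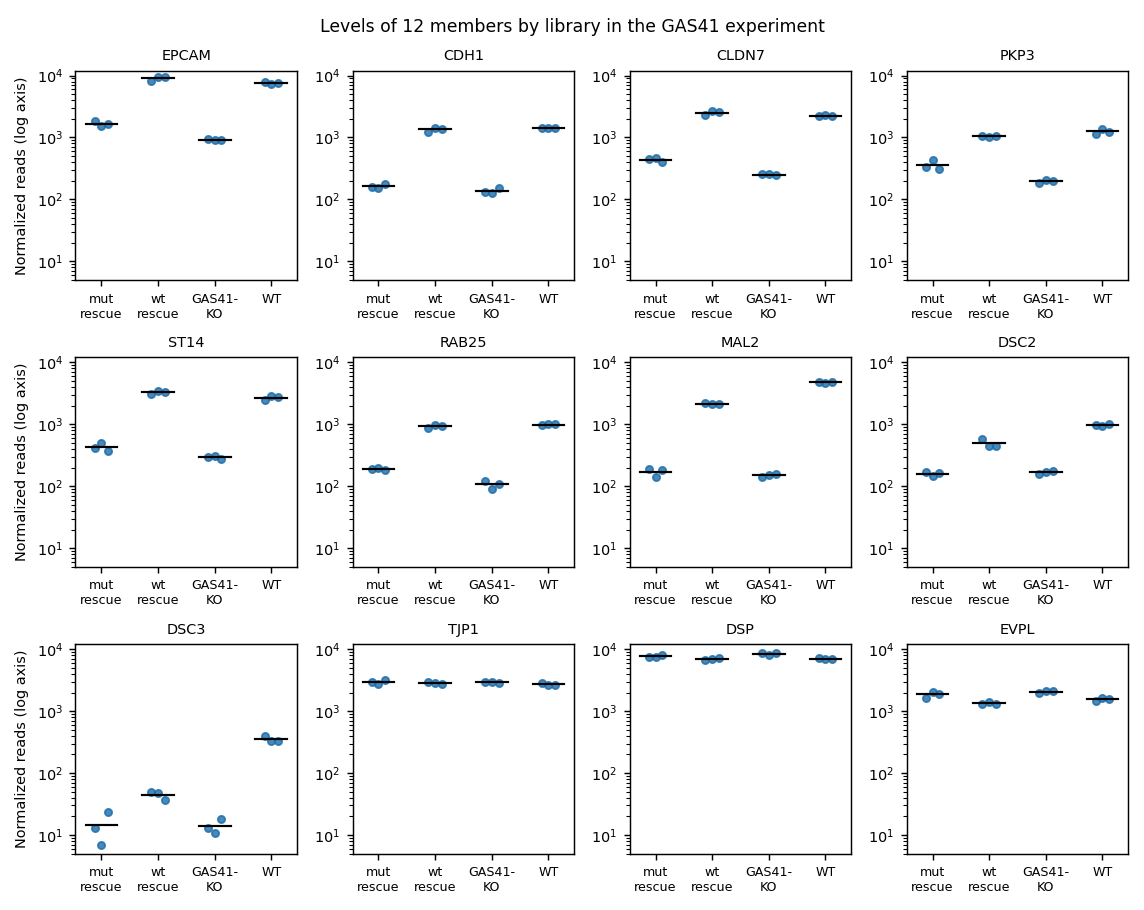
Normalized reads of 12 members in each library of the GAS41 experiment, on a log axis, with a bar at the mean of 3 libraries. In EPCAM, CDH1, CLDN7, PKP3, ST14, RAB25 and MAL2 mut rescue and GAS41-KO lie far below wt rescue and WT, whereas TJP1 and DSP are nearly level, and DSC3 stays low in wt rescue.

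The 9 desmosome and cornified plaque genes went both ways: in GAS41-KO plakophilins and desmosomal cadherins were below WT, while DSP, JUP, PPL and EVPL were slightly above it. PKP3, a plakophilin of the desmosomal plaque, had 334, 436 and 308 in mut rescue, 1049, 1029 and 1053 in wt rescue, 184, 204 and 200 in GAS41-KO and 1145, 1355 and 1245 in WT. It was 2.90-fold lower in mut rescue than in wt rescue (log2 difference -1.26, SE 0.08, adjusted p = 5.19e-09) and 1.83-fold higher in mut rescue than in GAS41-KO (adjusted p = 0.000181). Another plakophilin, PKP2, averaged 429 ± 30.1 in mut rescue, 686 ± 25.8 in wt rescue, 358 ± 16.9 in GAS41-KO and 653 ± 5.02 in WT. The desmosomal cadherins DSC2 and DSC3 stayed below WT in wt rescue. DSC2, desmocollin 2, had 169, 148 and 162 in mut rescue, 575, 451 and 453 in wt rescue, 161, 169 and 174 in GAS41-KO and 981, 951 and 998 in WT. It was 1.98-fold lower in wt rescue than in WT (log2 difference -0.82, SE 0.07, adjusted p = 7.54e-07) and 3.09-fold lower in mut rescue than in wt rescue (log2 difference -1.11, adjusted p = 3.27e-09). DSC3, desmocollin 3, had 12.96, 6.98 and 23.1 in mut rescue, 49.8, 48.0 and 36.1 in wt rescue, 12.97, 10.9 and 18.0 in GAS41-KO and 394, 331 and 336 in WT. The wt rescue libraries of DSC3 lie above GAS41-KO but 7.92-fold below WT in the mean. It was 3.11-fold lower in mut rescue than in wt rescue (log2 difference -0.47, SE 0.08, adjusted p = 0.000165). DSG2, desmoglein 2, averaged 2929 ± 136 in mut rescue, 3762 ± 337 in wt rescue, 2999 ± 75.3 in GAS41-KO and 4754 ± 236 in WT.

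PPL and EVPL, periplakin and envoplakin, link the plaque to the cornified envelope. PPL had 1984, 2142 and 2097 in mut rescue, 1547, 1698 and 1564 in wt rescue, 2036, 2203 and 2067 in GAS41-KO and 1768, 1857 and 1805 in WT. EVPL had 1654, 2059 and 1894 in mut rescue, 1299, 1396 and 1317 in wt rescue, 1979, 2155 and 2099 in GAS41-KO and 1437, 1625 and 1574 in WT. Both lie higher in mut rescue and GAS41-KO than in wt rescue, with no overlap. The log2 difference of mut rescue against wt rescue was 0.34 for PPL (adjusted p = 0.00013) and 0.44 for EVPL (adjusted p = 0.000109). JUP, plakoglobin, which serves both desmosomes and adherens junctions, averaged 5023 ± 626 in mut rescue, 4237 ± 327 in wt rescue, 4953 ± 109 in GAS41-KO and 3828 ± 155 in WT. Its adjusted p in mut rescue against wt rescue was 0.0186, and 0.0904 without replicate 2 of mut rescue. DSP, desmoplakin, which anchors keratin filaments, averaged 7655 ± 326 in mut rescue, 6983 ± 268 in wt rescue, 8475 ± 228 in GAS41-KO and 7037 ± 231 in WT. DSP in mut rescue against wt rescue had a log2 difference of 0.13 (SE 0.06, adjusted p = 0.0636), and was called under quantile normalization (log2 difference 0.31) and without replicate 2 of mut rescue (adjusted p = 0.0488).

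Of the 3 polarity genes CRB3 differed most. CRB3, the Crumbs protein of the apical membrane, had 101, 101 and 82.5 in mut rescue, 231, 285 and 252 in wt rescue, 54.9, 59.4 and 62.1 in GAS41-KO and 232, 214 and 240 in WT. The groups keep apart except wt rescue and WT, and CRB3 was 2.70-fold lower in mut rescue than in wt rescue (log2 difference -0.83, SE 0.06, adjusted p = 3.28e-08). LLGL2, a basolateral determinant of the Lgl family, had 1115, 1283 and 1134 in mut rescue, 1566, 1489 and 1502 in wt rescue, 1408, 1554 and 1429 in GAS41-KO and 1583, 1717 and 1627 in WT. LLGL2 was lower in mut rescue than in GAS41-KO as well (log2 difference -0.28, adjusted p = 0.00696), as was CLDN4 (log2 difference -0.31, adjusted p = 0.00735). PARD6B, a Par complex adaptor, averaged 325 ± 77.6 in mut rescue and 259 ± 58.8 in wt rescue, with an adjusted p of 0.0884. Without replicate 2 of mut rescue, or without replicate 1 of wt rescue, PARD6B was called higher (log2 difference 0.34 in both, adjusted p = 0.0115 and 0.00434).

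All 4 membrane protease and inhibitor genes were lower in mut rescue than in wt rescue, where 31.3% of all genes tested were lower. ST14 encodes matriptase, a membrane serine protease that activates prostasin, the product of PRSS8. ST14 had 418, 507 and 365 in mut rescue, 3066, 3484 and 3336 in wt rescue, 292, 305 and 278 in GAS41-KO and 2490, 2863 and 2743 in WT. The mean was 7.66-fold lower in mut rescue than in wt rescue (log2 difference -2.59, SE 0.08, adjusted p = 8.69e-13) and 1.47-fold higher in mut rescue than in GAS41-KO (adjusted p = 0.00394). PRSS8 averaged 82.3 ± 16.0 in mut rescue, 456 ± 16.2 in wt rescue, 96.6 ± 5.65 in GAS41-KO and 558 ± 7.21 in WT. SPINT1 and SPINT2, Kunitz inhibitors of matriptase, had log2 differences of -0.78 and -0.68 in mut rescue against wt rescue. SPINT1 averaged 1028 ± 140 in mut rescue, 1861 ± 90.6 in wt rescue, 1008 ± 67.7 in GAS41-KO and 1642 ± 58.7 in WT. SPINT2 had 3464, 4323 and 3400 in mut rescue, 5534, 6273 and 6259 in wt rescue, 3495, 3614 and 3635 in GAS41-KO and 4302, 4510 and 4359 in WT. SPINT2 was highest in wt rescue, where every library lies above WT (log2 difference 0.44, SE 0.08, adjusted p = 0.000518).

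All 5 apical transport genes were lower in mut rescue than in wt rescue, where 31.3% of all genes tested were lower. Of these 5, 3 are genes chosen by their fall in GAS41-KO. MAL2, a membrane protein of apical transcytosis, had 191, 143 and 185 in mut rescue, 2209, 2139 and 2125 in wt rescue, 139, 153 and 156 in GAS41-KO and 4791, 4579 and 4841 in WT. In GAS41-KO it was 31.7-fold below WT in the mean, and in wt rescue it was still 2.20-fold below WT with no overlap. AP1M2, the epithelial medium subunit of the clathrin adaptor AP-1, had 62.8, 64.9 and 54.3 in mut rescue, 1039, 1334 and 1142 in wt rescue, 30.9, 38.6 and 34.03 in GAS41-KO and 1196, 1212 and 1135 in WT. Its wt rescue and WT libraries overlap. Against wt rescue, mut rescue was 12.5-fold lower for MAL2 (log2 difference -2.91, SE 0.07, adjusted p = 3.04e-14) and 19.3-fold lower for AP1M2 (log2 difference -2.84, SE 0.07, adjusted p = 7.64e-14), the largest log2 falls among the members there. EPN3, an epsin of endocytosis, had 39.9, 40.9 and 25.2 in mut rescue, 133, 128 and 136 in wt rescue, 44.9, 41.6 and 40.0 in GAS41-KO and 319, 357 and 356 in WT. Like MAL2, EPN3 lay between GAS41-KO and WT in every wt rescue library. It was 3.75-fold lower in mut rescue than in wt rescue (log2 difference -0.82, adjusted p = 3.33e-08). RAB25, an epithelial Rab of recycling endosomes, averaged 189 ± 7.27 in mut rescue, 928 ± 65.3 in wt rescue, 107 ± 16.4 in GAS41-KO and 987 ± 18.4 in WT, and was 1.76-fold higher in mut rescue than in GAS41-KO (adjusted p = 0.000184). MYO5B, the myosin motor that RAB11 and RAB25 vesicles use, had 895, 847 and 890 in mut rescue, 1081, 1124 and 1143 in wt rescue, 881, 835 and 857 in GAS41-KO and 986, 894 and 1012 in WT. Its difference between mut rescue and wt rescue was small (log2 difference -0.30, SE 0.06, adjusted p = 0.000345).

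**Figure D3:**
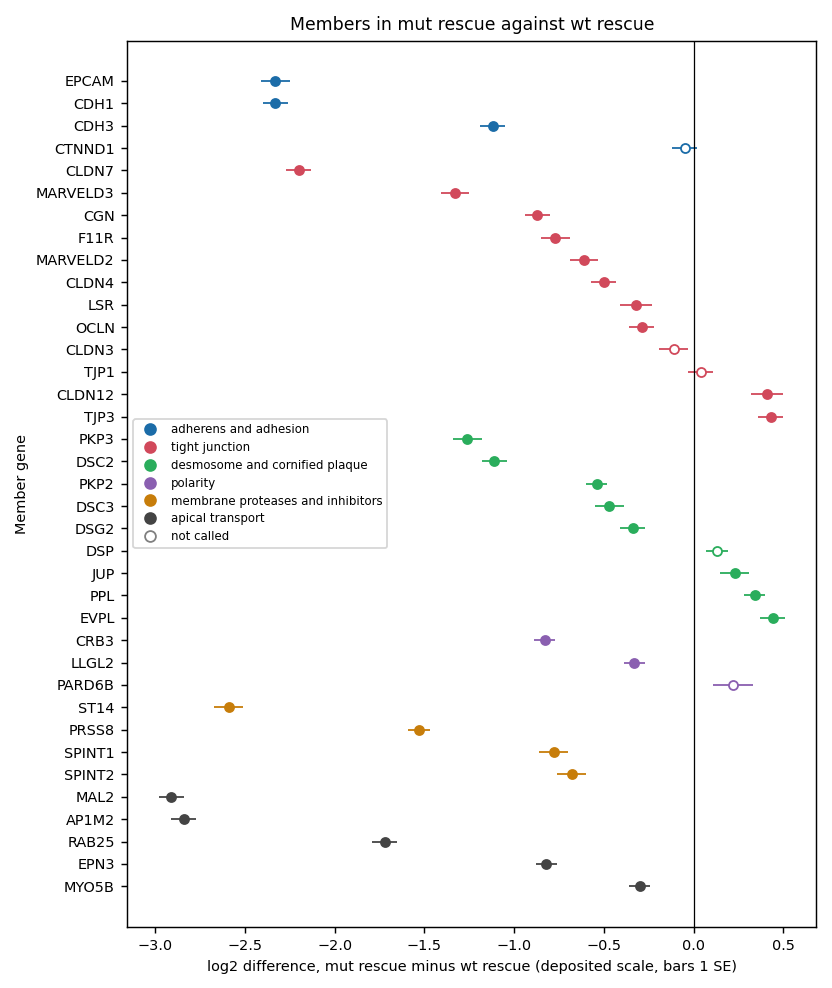
Log2 difference of mut rescue minus wt rescue for the 37 tested members, with bars of 1 SE and open points for members that were not called. MAL2, AP1M2 and ST14 lie farthest to the left, and EVPL, TJP3 and CLDN12 farthest to the right.

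Some members differed between wt rescue and WT. Of the 33 tested members that were not chosen by their fall, 18 were not called between wt rescue and WT. Over all genes tested, 7238 of 14505 were not called there. That a member was not called does not show that it was equal. Of the 15 calls 11 were lost under some alternative. Without replicate 1 of wt rescue 12 were higher and 8 lower, with replicate 1 as its only library 2 were higher and 2 lower, and under quantile normalization 4 were higher and 12 lower. Without replicate 2 of WT, or without replicate 3 of wt rescue, 5 were lower. DSC2, F11R, SPINT2 and TJP3 were called in wt rescue against WT under every alternative. F11R averaged 3580 ± 398 in wt rescue and 2520 ± 147 in WT (log2 difference 0.48, adjusted p = 0.00018).

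Between mut rescue and GAS41-KO 13 of the 33 members were called and 20 were not. Over all genes tested, 12341 of 14505 were not called there. In mut rescue against GAS41-KO, EPCAM, PKP3, CLDN7, RAB25, ST14, F11R and CRB3 were higher under every alternative, with log2 differences of 0.30 to 0.77. OCLN, PKP2 and TJP3 were also called higher (adjusted p = 0.0474, 0.0341 and 0.0272) but not without replicate 3 of GAS41-KO (adjusted p = 0.18, 0.14 and 0.0603). CDH1, CDH3, DSC2, PRSS8 and SPINT1, low in GAS41-KO, were not called, and their libraries overlapped with those of GAS41-KO. For CDH1 the log2 difference was 0.14 (SE 0.07, adjusted p = 0.177), and for DSC2 it was -0.05 (SE 0.07, adjusted p = 0.743).

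In doxorubicin an epsin and a desmocollin stood out among the members. EPN3 had 2819, 3018 and 2833 normalized reads in doxorubicin and 628, 542 and 453 in DMSO, 5.34-fold higher (log2 difference 2.08, SE 0.09, adjusted p = 3.56e-10). DSC3 had 1817, 1472 and 1655 in doxorubicin and 224, 250 and 322 in DMSO, 6.21-fold higher (log2 difference 2.04, SE 0.09, adjusted p = 8.51e-10). Both were chosen for a fall in GAS41-KO, and both had larger log2 rises here than any other member. CDH3 had 6736, 6772 and 6867 in doxorubicin and 3292, 3169 and 3020 in DMSO (log2 difference 1.06, SE 0.07, adjusted p = 2.28e-08). CDH1 averaged 2105 ± 85.3 in doxorubicin and 1405 ± 32.0 in DMSO, 1.498-fold higher (log2 difference 0.52, adjusted p = 1.15e-05). EPCAM, the other surface marker of epithelium, was lower, at 4938 ± 409 in doxorubicin and 7198 ± 391 in DMSO (log2 difference -0.53, adjusted p = 6.14e-05).

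Of 12 tight junction genes other than CLDN1, 7 were higher and 2 lower in doxorubicin than in DMSO. Over all genes tested, 32.3% were higher and 33.4% lower. LSR averaged 8837 ± 437 in doxorubicin and 4402 ± 636 in DMSO (log2 difference 0.98, adjusted p = 1.26e-06). CGN was 2.20-fold and MARVELD2 2.22-fold higher, and F11R, CLDN4 and MARVELD3 were 1.495-fold to 1.63-fold higher. CLDN1 had 17.8, 15.3 and 19.7 in doxorubicin and 1.02, 0 and 0.97 in DMSO, too few reads for a fold. The tight junction genes that fell were CLDN12 and OCLN. CLDN12 had 368, 339 and 398 in doxorubicin and 721, 824 and 907 in DMSO, 2.22-fold lower (log2 difference -0.86, SE 0.08, adjusted p = 5.95e-07). OCLN averaged 328 ± 37.99 in doxorubicin and 578 ± 39.3 in DMSO (log2 difference -0.58, adjusted p = 1.25e-05). CLDN7, CLDN3 and TJP3 were not called, and CLDN7 averaged 2944 ± 132 in doxorubicin and 3132 ± 115 in DMSO (log2 difference -0.08, SE 0.07).

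Among desmosome genes JUP, PPL and EVPL rose in doxorubicin beside DSC3. JUP averaged 11354 ± 102 in doxorubicin and 5543 ± 615 in DMSO (log2 difference 1.01, adjusted p = 2.6e-07), and PPL averaged 2846 ± 127 in doxorubicin and 1429 ± 67.3 in DMSO. DSC2 went the other way, with 477, 447 and 510 in doxorubicin and 773, 785 and 939 in DMSO (log2 difference -0.62, SE 0.08, adjusted p = 1.05e-05). Of the proteases and inhibitors ST14 and SPINT1 were higher (log2 differences 0.40 and 0.55) and SPINT2 lower (-0.37), and PRSS8 was not called. In apical transport MAL2 had 3115, 3097 and 3114 in doxorubicin and 5546, 5316 and 5692 in DMSO, 1.78-fold lower (log2 difference -0.79, SE 0.07, adjusted p = 3.05e-07). MYO5B was 1.56-fold lower. AP1M2 and RAB25 were not called (adjusted p = 0.0771 and 0.0769), but AP1M2 was without replicate 1 of DMSO (log2 difference 0.19, adjusted p = 0.0239) and RAB25 without replicate 3 of DMSO (log2 difference -0.23, adjusted p = 0.0195). CTNND1, PKP2 and TJP1 were called here (adjusted p = 0.0109, 0.0275 and 0.0152) but not without replicate 2 of doxorubicin for CTNND1 (adjusted p = 0.0581) or replicate 1 of doxorubicin for PKP2 and TJP1 (adjusted p = 0.126 and 0.0761). YEATS4 itself averaged 185 ± 10.7 in doxorubicin and 668 ± 48.4 in DMSO, and its part in these differences was not tested.

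**Figure D4:**
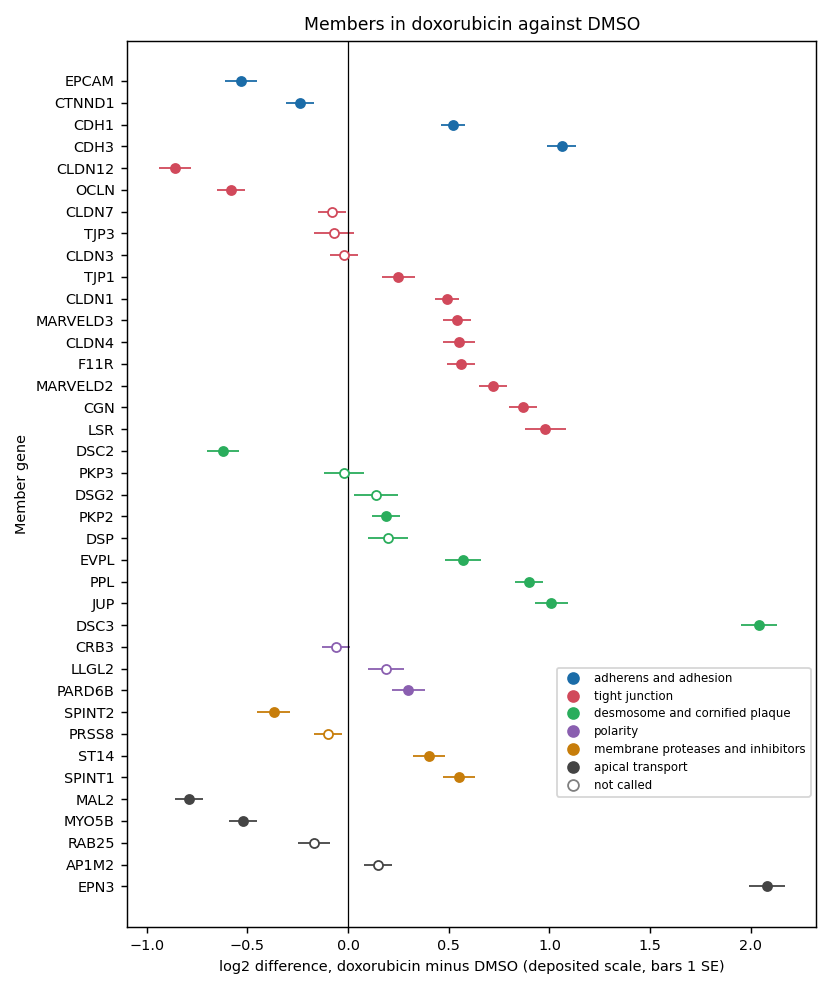
Log2 difference of doxorubicin minus DMSO for the 38 members, with bars of 1 SE and open points for members that were not called. EPN3 and DSC3 lie alone at the right, past 2, and CLDN12, MAL2 and DSC2 farthest to the left.

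**Figure D5:**
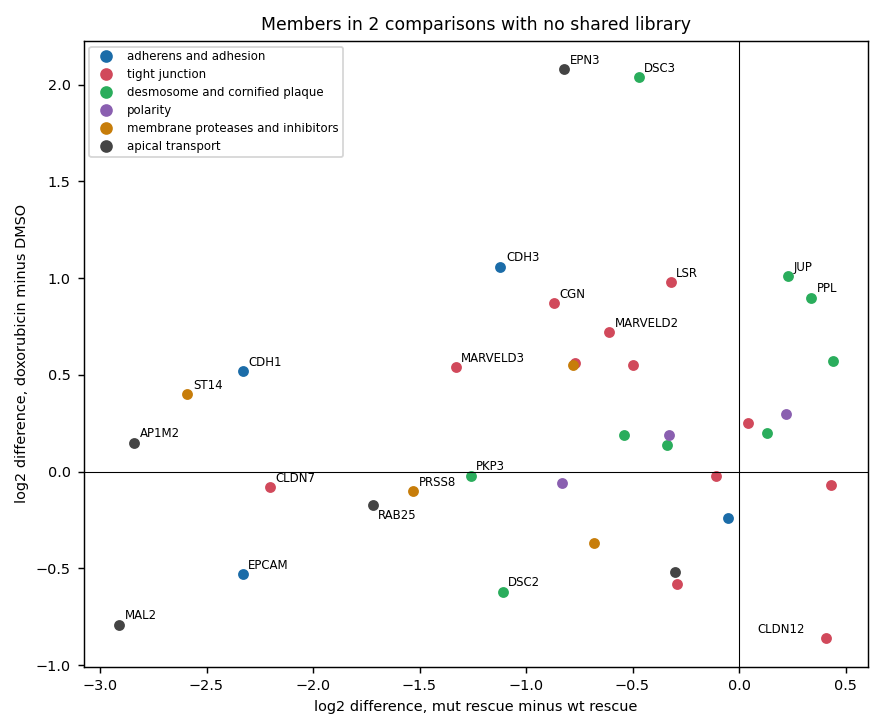
Each point is 1 of the 37 members tested in both experiments, placed by its log2 difference of mut rescue minus wt rescue (across) and of doxorubicin minus DMSO (up), 2 comparisons with no shared library. MAL2, EPCAM and DSC2 were lower in both, CDH1, ST14 and CDH3 were lower in mut rescue and higher in doxorubicin, and CLDN12 was higher in mut rescue and lower in doxorubicin.

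Several members have a paralog that is known to be more widely expressed. Of 19 listed paralogs 15 were tested in the GAS41 experiment, and in mut rescue against wt rescue 3 were higher, 4 lower and 8 not called, where 29.8% of all genes were higher and 31.3% lower. AP1M1, the paralog of AP1M2, averaged 1218 ± 162 in mut rescue and 1185 ± 36.9 in wt rescue (log2 difference 0.03, SE 0.08), beside -2.84 for AP1M2. RAB11A, a relative of RAB25, averaged 3049 ± 175 in mut rescue and 2954 ± 127 in wt rescue (log2 difference 0.04), and PKP4, a relative of PKP3, averaged 2455 ± 15.9 in mut rescue and 2526 ± 310 in wt rescue (log2 difference -0.03). N-cadherin (CDH2), whose gain often goes with loss of E-cadherin, was at 0 reads in every mut rescue and GAS41-KO library and at 0 to 1.89 normalized reads in wt rescue and WT. ARVCF, a relative of CTNND1, averaged 2550 ± 142 in doxorubicin and 467 ± 49.7 in DMSO (log2 difference 2.06), while CTNND1 averaged 85.3 ± 15.6 in doxorubicin and 124 ± 19.7 in DMSO.

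Other genes of the same pathways were taken from lists of what they encode, also made with earlier results of these data known. Their counts stand against 29.8% higher and 31.3% lower over all genes in mut rescue against wt rescue, and 32.3% higher and 33.4% lower in doxorubicin against DMSO. Between mut rescue and wt rescue, 10 of 22 further tight junction genes were higher and 4 lower, led by the scaffold MAGI1, which averaged 3875 ± 275 in mut rescue and 1125 ± 36.3 in wt rescue (log2 difference 1.66). Of 12 further adherens and nectin genes 3 were higher and 3 lower, and of 30 further apical and endosome transport genes 9 were higher and 9 lower. In the first of these the nectin NECTIN4, named PVRL4 in the files, averaged 146 ± 9.64 in mut rescue and 23.9 ± 4.13 in wt rescue. Of 19 further polarity genes 5 were higher and 6 lower, led by PATJ, the partner of Crumbs complexes (INADL in the files), at 475 ± 28.6 in mut rescue and 898 ± 76.9 in wt rescue. Of 5 tested membrane protease and channel genes 0 were higher and 4 lower, led by SCNN1A. It encodes a subunit of the epithelial sodium channel, a channel that prostasin activates. SCNN1A averaged 270 ± 13.9 in mut rescue and 927 ± 49.0 in wt rescue (log2 difference -1.39, adjusted p = 3.81e-11). Of 3 further desmosome genes PERP was higher (adjusted p = 0.041) and 0 were lower. In doxorubicin against DMSO the same lists had 9 higher and 8 lower of 21 tight junction genes and 6 and 3 of 12 adherens and nectin genes. They had 9 and 8 of 29 transport genes and 9 and 3 of 19 polarity genes. For protease genes the counts were 3 and 1 of 6, and for desmosome genes 2 and 0 of 3. The polarity genes called higher include CRB2, which passed the filter only through the doxorubicin libraries. CRB2 had 23.4 to 28.6 normalized reads in doxorubicin and 0 to 2.03 in DMSO.

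Of 14 tested epithelial and mesenchymal factors 3 were higher and 10 lower in mut rescue than in wt rescue, and of 16 in doxorubicin against DMSO 10 were higher and 2 lower, beside the same shares over all genes. GRHL2 averaged 7.68 ± 2.13 in mut rescue, 502 ± 42.4 in wt rescue, 5.98 ± 2.66 in GAS41-KO and 705 ± 4.74 in WT, and 877 ± 14.6 in doxorubicin and 774 ± 16.9 in DMSO. ZEB1 averaged 543 ± 70.3 in mut rescue, 35.2 ± 20.0 in wt rescue, 745 ± 19.7 in GAS41-KO and 82.3 ± 10.1 in WT, and 15.9 ± 2.39 in doxorubicin and 53.9 ± 26.2 in DMSO. SNAI2 averaged 122 ± 3.44 in doxorubicin and 1.32 ± 0.54 in DMSO. It is among the 10 factors called higher in doxorubicin and passed the filter only through the doxorubicin libraries. The part of these factors in the members' values was not tested.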

How the data were processed

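Poly-A RNA of 18 libraries was analysed, and 26 ChIP and input samples were not analysed here. Per the submitters' processing notes the tools included DESeq2, HTSeq, TopHat2 2.1.0, Bowtie 1.0.1, Trimmomatic 0.36 and CASAVA 1.4, with builds mm9 and hg19, in no stated role or order. The deposited values are called counts, yet they are variance-stabilized log2 values, in 1 separately normalized table for each experiment. Inverting that transform gave whole reads per gene for 100.0% of values (tolerance 0.01), and a value 1 log2 unit above a table's lowest equals 39.1 normalized reads for GAS41 and 52.6 for doxorubicin. No column was left without a sample.

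The deposited log2 values were fitted with limma 3.58.1 (trend) in R 4.3.3, with all 12 GAS41 libraries in 1 fit and the 6 doxorubicin libraries in another. Genes needed at least 10 reads in at least 3 libraries, which left 14505 and 14195, and p-values were adjusted by Benjamini-Hochberg over them. The fits were also run on simulated counts with planted changes, in which every library varied alike and none stood apart. The rescue libraries here were less even, so that run cannot give the error rate in these data. P-values measure the spread between the labelled replicates. Any member could be named. Values in every library are given, in each role, for the members with the largest and the smallest difference in GAS41-KO against WT, for MAL2, AP1M2, DSC3 and EPN3, and for the 3 highest and 3 lowest log2 differences in mut rescue against wt rescue and in doxorubicin against DMSO. The other members are given by means or counts, and from each pathway list up to 3 genes per comparison. Members and lists were chosen with earlier results of these data known. Replicate numbers were not treated as pairs. The alternatives were other log2 offsets, quantile normalization, no filter on low reads, voom on the recovered reads, only the 2 groups compared, a replicate block and leaving out each library.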

Additional observations from a re-analysis of the deposited data

How the results depend on the processing

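No called member changed direction among 12 to 14 alternatives per comparison. In mut rescue against wt rescue 29 of 32 calls were kept under every alternative (CLDN12, JUP and LSR were not), and in doxorubicin against DMSO 24 of 27 (CTNND1, PKP2 and TJP1 were not). In wt rescue against WT only DSC2, F11R, SPINT2 and TJP3 of 15 were kept. Low read numbers limit DSC3 in mut rescue and GAS41-KO and CLDN1 throughout.

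Leaving out single libraries gave 415 to 887 genes higher (858 with all) and 868 to 1487 lower (1306 with all) in mut rescue against GAS41-KO. It gave 1 to 3 members higher in mut rescue against WT (3 with all). In wt rescue against WT it gave 5 to 12 members higher (6 with all) and 5 to 8 lower (9 with all). With replicate 1 as the only library of wt rescue, that comparison had 2 members higher and 2 lower, and 1233 genes higher and 1095 lower over all genes (3978 and 3289 with all libraries). The lone library is assumed to vary like the others. The cause of these shifts was not tested.

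Differences near 0 changed sign for a pair of members that were not tested. For DSC3 in mut rescue against GAS41-KO the log2 difference was -0.0055, 0.0063 under quantile normalization, and -0.0951 to 0.0778 with single libraries left out. For AP1M2 in wt rescue against WT it was -0.0159, and -0.1028 to 0.0576 with single libraries left out.

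Libraries with the same replicate number did not deviate together throughout: correlations ran between -0.39 and 0.478 over 18 pairs in the GAS41 experiment, 11 of them over 0.1, and between -0.393 and 0.15 over 3 pairs in the doxorubicin experiment. With the replicate number as a block, 5 members were higher and 27 lower in mut rescue against wt rescue, 19 and 8 in doxorubicin against DMSO, 12 and 3 in mut rescue against GAS41-KO, and 9 and 10 in wt rescue against WT. A library correlated best with libraries of its own number in 6 of 12 and in 2 of 6 cases.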

Other observations

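Some members are neighbours on a chromosome with 0 coding genes between them in the RefSeq gene order. CDH3 and CDH1 on chromosome 16 had log2 differences of -1.12 and -2.33 in mut rescue against wt rescue, and of 1.06 and 0.52 in doxorubicin against DMSO. DSC3 and DSC2 on chromosome 18, both desmocollins, had -0.47 and -1.11 in mut rescue against wt rescue. Their means in mut rescue were 3.11-fold and 3.09-fold below wt rescue, as the log2 scale shrinks changes of genes with few reads. In doxorubicin against DMSO DSC3 and DSC2 had 2.04 and -0.62. MARVELD2 and OCLN on chromosome 5, both MARVEL proteins of the tight junction, had -0.61 and -0.29 in mut rescue against wt rescue, and 0.72 and -0.58 in doxorubicin against DMSO. CLDN3 and CLDN4 on chromosome 7 had -0.11 and -0.50 in mut rescue against wt rescue, and -0.02 and 0.55 in doxorubicin against DMSO. In doxorubicin, DSC3 and MARVELD2 were called higher and their neighbours DSC2 and OCLN lower. The pairs were chosen after their values were seen, and the difference between neighbours was not tested.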
